A study of Homo sapiens with 39 samples.

Results

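The data described here are the day 5 libraries of a time course in which C4-2B cells received olaparib at 1 µM or its vehicle DMSO. The members were taken by their titles and comprise 6 of the 39 libraries of the series, 3 with olaparib 1 µM and 3 with DMSO, and they were compared across all genes. C4-2B is a castration-resistant prostate cancer cell line derived from LNCaP, and it was grown in medium with serum in every group. The time course holds 18 libraries in all, with DMSO, olaparib 1 µM and olaparib 5 µM at days 1 and 5 and 3 libraries per group. The remaining 21 libraries form a separate panel of 7 treatments of the same line at day 5, which has its own DMSO and olaparib 1 µM libraries. The comparison rests on 1 cell line, and no label says that the libraries of a group came from separate cultures, so p-values measure only the spread between these libraries, which may be technical.

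Olaparib inhibits PARP1 and PARP2, enzymes that detect DNA breaks and build chains of poly(ADP-ribose) on themselves and on nearby proteins. Inhibited PARP1 stays on DNA, where it obstructs replication forks, and the resulting lesions are repaired largely by homologous recombination under the control of the ATM and ATR checkpoint kinases. Activated p53 induces a well-studied set of target genes, among them the cyclin-dependent kinase inhibitor CDKN1A (p21), and cells that leave the cycle lower the genes that the E2F and DREAM/MuvB complexes control in S phase and in G2/M. In prostate cells androgen signalling drives luminal genes such as KLK3, which encodes prostate-specific antigen, and TMPRSS2.

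The question asked of these libraries was how the transcriptome of C4-2B stood after days of exposure to the lower of 2 doses of a PARP inhibitor. Each of the 6 libraries held between 36089054 and 44893664 estimated counts. Libraries of a group lay 58.1 to 62.2 apart (Euclidean distance on log2 CPM over the genes tested), and libraries of different groups 76 to 81.5 apart. The prostate luminal markers were well counted in all 6 libraries, with at least 46358 counts for KLK3 and 4271 for TMPRSS2. Of 22 markers of fibroblasts, leukocytes, endothelium, liver and erythrocytes, 10 had at most 3 counts in every one of the 6 libraries and 2 were at 0 throughout. Their summed level was 31.7 to 32.6 CPM in DMSO and 44 to 44.7 CPM with olaparib. The most counted were COL1A1, VWF and CD68. The lysosomal glycoprotein CD68 went from 6.35, 5.52 and 5.82 CPM to 15.2, 15.4 and 16.7 CPM and made up most of that difference. Of the 8 markers tested 4 were higher (CD68, LYZ, HBA1 and COL1A1, named after their values were seen) and 0 lower, where 23.4% of all genes were higher. LYZ, a secreted lysozyme of myeloid cells, had 15 to 20 counts in DMSO and 50 to 57 with olaparib. The part of such cells in the results was not tested. Levels are CPM, estimated counts relative to the TMM-scaled library size, and are not corrected for gene length, so they compare libraries and not genes.

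Olaparib at 1 µM changed many genes, most of them by little. Of 18502 genes tested, 8566 (46.3%) passed an adjusted p of 0.05 in the quasi-likelihood test of edgeR, 4324 higher (23.4%) and 4242 lower (22.9%). With total-count scaling 3917 were higher and 4771 lower, so the higher share of the calls was 45.1% in place of 50.5%. The median absolute log2 fold change of the called genes was 0.28, and 6356 of them (74.2%) changed by less than 0.5 on the log2 scale. At least a log2 change of 1 was reached by 738, of which 613 were higher and 125 lower, and the large changes were thus mostly rises. Values in the olaparib and DMSO libraries did not overlap for 9907 genes (53.5%). An unadjusted p under 0.05 was found for 9592 genes.

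**Figure D1:**
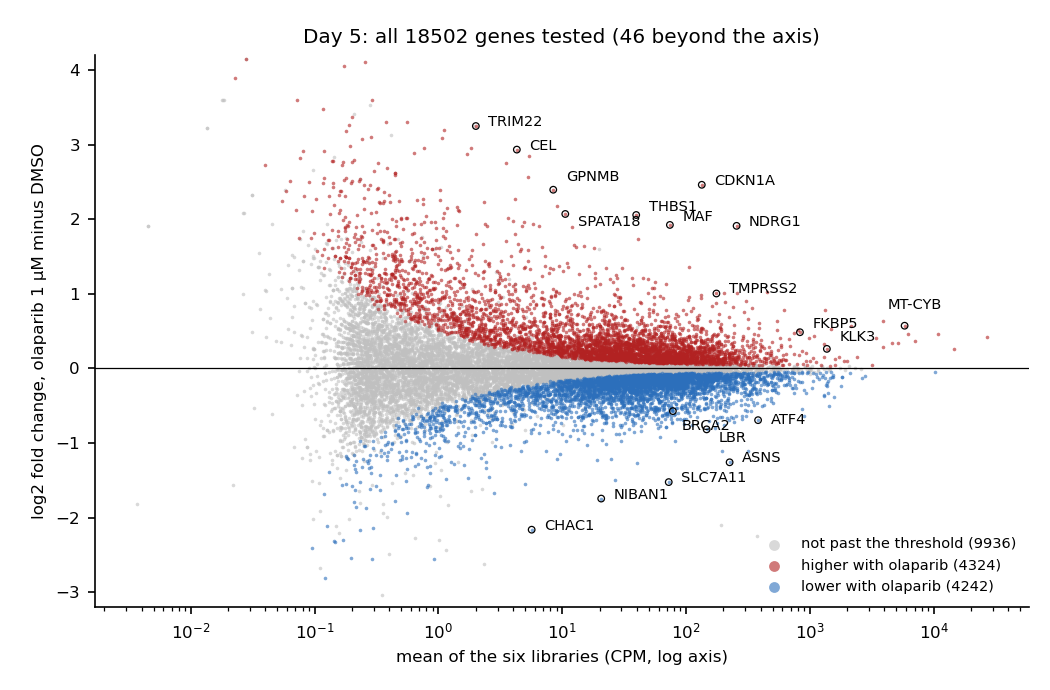
Log2 fold change of olaparib 1 µM against DMSO at day 5 for each of the 18502 genes tested, against the mean level of the 6 libraries on a log axis in CPM. Red points (4324) are higher and blue points (4242) lower at an adjusted p under 0.05, and 46 genes lie beyond the axis. CDKN1A, NDRG1 and MAF stand above the bulk of the points, and CHAC1, NIBAN1 and SLC7A11 stand below.

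CDKN1A (ENSG00000124762.14, GRCh38 chromosome 6 from 36676460 to 36687337, plus strand), the p53-induced inhibitor of cyclin-dependent kinases, was among the 12 genes with the largest rise where the higher group averaged 100 counts or more. It measured 40.4, 41.9 and 41 CPM in the DMSO libraries and 224, 228 and 227 CPM in the olaparib libraries. The groups lay far apart beside a spread of a few CPM, with a log2 fold change of 2.46 ± 0.025 (± SE for every log2 fold change or difference, n = 3 libraries per group), which is 5.51-fold (adjusted p = 3.89e-40, edgeR's quasi-likelihood test). TRIM22 (ENSG00000132274.17, GRCh38 chromosome 11 from 5689610 to 5737089, plus strand), a p53- and interferon-inducible antiviral protein, had the largest rise of these genes. Its level was 0.463, 0.325 and 0.335 CPM in the DMSO libraries and 3.78, 3.74 and 3.38 CPM in the olaparib libraries, a log2 fold change of 3.25 ± 0.15 (adjusted p = 1.68e-19). Both genes, named for their large rises, separated the groups by far more than the spread between libraries. CYP3A5, a cytochrome P450 that oxidises many drugs and steroids, went from 0.375, 0.65 and 0.232 CPM to 3.46, 2.79 and 3.43 CPM (2.95 ± 0.21). Carboxyl ester lipase (CEL) rose from 0.97, 0.921 and 1.08 CPM to 7.0, 7.75 and 8.04 CPM (2.93 ± 0.11). APOBEC3C, a cytidine deaminase, rose from 0.309, 0.596 and 0.335 CPM to 2.68, 2.87 and 3.43 CPM (2.87 ± 0.19). No library of one group reached the range of the other for any of these 5 genes. They were picked for their large rises, and values did not overlap for 53.5% of all genes tested.

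The rest of the 12 largest rises were SERPIND1 (heparin cofactor, 2.75 ± 0.14), GPNMB (a lysosome-associated glycoprotein, 2.40 ± 0.11), the cytokine LIF (2.27 ± 0.11), HHIPL2 (2.23 ± 0.16), the p53-induced long non-coding RNA PURPL (2.18 ± 0.076), SPATA18 (a p53 target in mitochondrial quality control, 2.07 ± 0.071) and thrombospondin-1 (THBS1, 2.06 ± 0.042). THBS1, a secreted matrix glycoprotein, was well measured at 15.1, 15.3 and 15.6 CPM in the DMSO libraries and 62.5, 64.6 and 64 CPM in the olaparib libraries. Its lowest olaparib library was above the highest DMSO library several times over. TRIM22, CYP3A5, CEL, APOBEC3C, SERPIND1 and HHIPL2 lay below 1 CPM on average in DMSO, so their fold changes rest on at most 44 counts in a DMSO library.

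The 12 largest falls, taken among genes whose higher group averaged 100 counts or more, reached a log2 change of -2.16, and 4 of them (CHAC1, SLC7A11, ASNS and SLC1A4) belong to the list of ATF4 and amino acid response genes. CHAC1 (ENSG00000128965.13, GRCh38 chromosome 15 from 40952962 to 40956512, plus strand), which degrades glutathione and is a target of the transcription factor ATF4, fell the most among these. It measured 8.84, 9.75 and 9.16 CPM in the DMSO libraries and 1.85, 2.38 and 1.95 CPM in the olaparib libraries (-2.16 ± 0.10, adjusted p = 8.98e-20). SLC7A11, the cystine-glutamate antiporter, went from 105, 114 and 103 CPM to 37.7, 37.7 and 36.7 CPM (-1.52 ± 0.042). Asparagine synthetase (ASNS, ENSG00000070669.17, GRCh38 chromosome 7 from 97851677 to 97872542, minus strand) went from 313, 322 and 315 CPM to 135, 131 and 131 CPM (-1.26 ± 0.024, adjusted p = 2.77e-31). The neutral amino acid carrier SLC1A4 changed by -1.23 ± 0.051 and BCAT1, which transaminates branched-chain amino acids, by -1.49 ± 0.066. NIBAN1, a stress-responsive protein that modulates translation, went from 32.1, 30.4 and 32.7 CPM to 9.6, 9.13 and 9.71 CPM (-1.74 ± 0.054). The remaining falls were DDC (aromatic amino acid decarboxylase, -1.27 ± 0.036), PREX1 (a Rac exchange factor, -1.45 ± 0.15), the carbonic anhydrase-related CA8 (-1.54 ± 0.10), the ubiquitin ligase RNF152 (-1.33 ± 0.14), SLITRK3 (-1.67 ± 0.14) and LINC01133 (-1.26 ± 0.15).

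**Figure D2:**
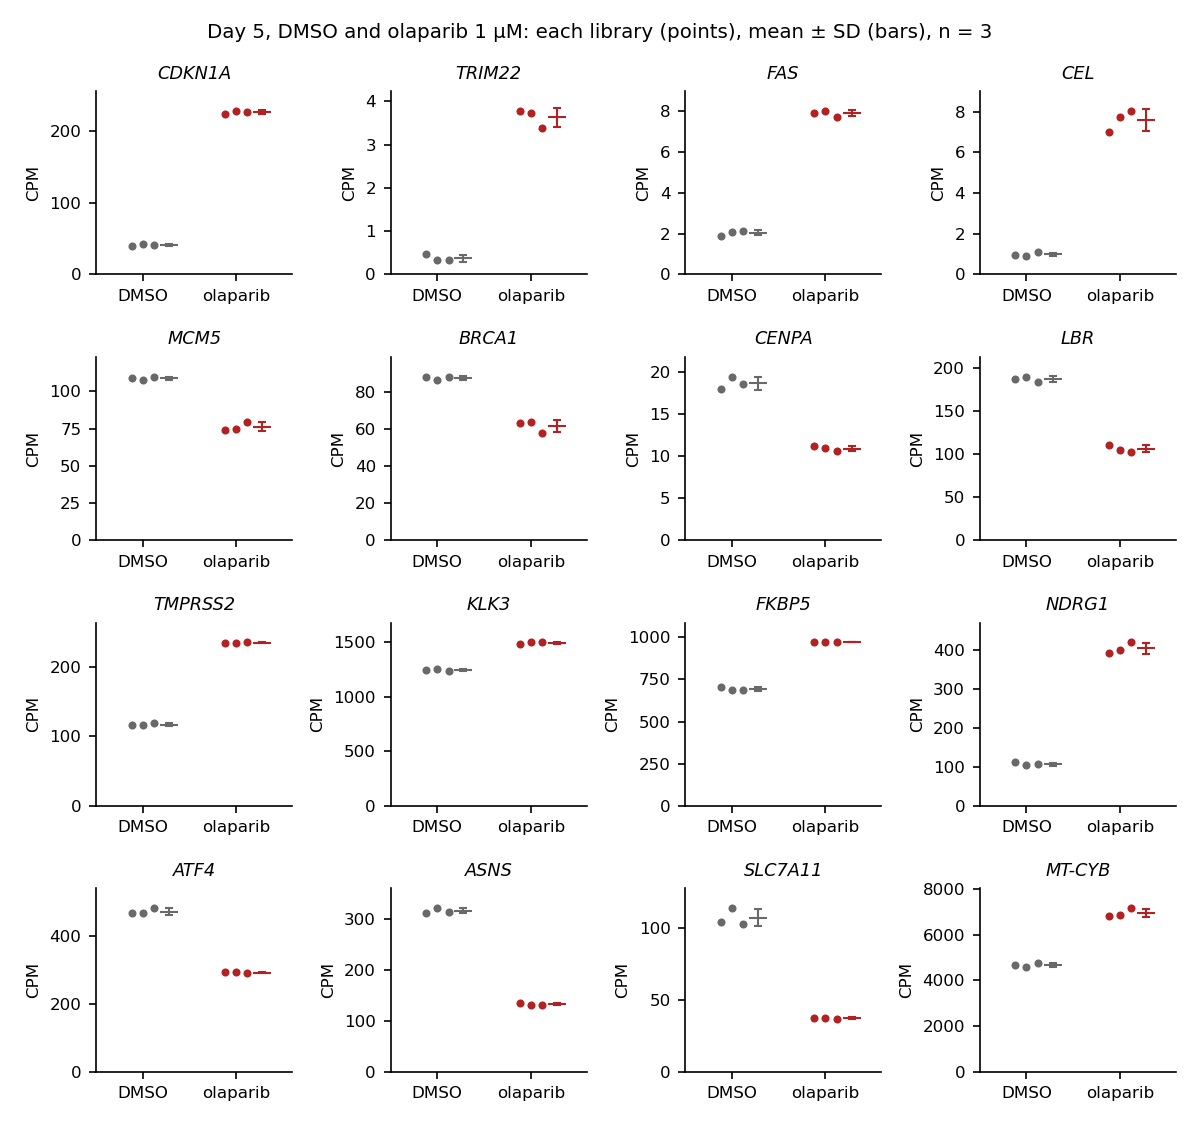
Level in each of the 6 libraries (points, CPM, linear axes from 0) with the mean ± SD (n = 3) for 16 genes in DMSO and olaparib 1 µM at day 5. The libraries of a group lie close together and the groups do not overlap in any of the 16 panels, whether the change is large, as for CDKN1A (mean 41.1 to 226 CPM), or small, as for KLK3 (mean 1245 to 1494 CPM). The 16 genes were picked for display, and values did not overlap for 53.5% of all genes tested.

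Of the p53 targets, 48 of 59 tested rose and 2 fell, against 23.4% and 22.9% of all genes, with a median log2 fold change of 0.57 where the median over all genes tested was -0.00075. With the 3 members that had 3 counts or fewer in each DMSO library placed at their bound, the median was 0.51. The death receptor FAS went from 1.9, 2.06 and 2.14 CPM to 7.91, 7.99 and 7.7 CPM (1.96 ± 0.086) and the secreted cytokine GDF15 went from 16.2, 17.3 and 18 CPM to 45.1, 43.8 and 42 CPM (1.35 ± 0.048). MDM2, the ubiquitin ligase that restrains p53, rose by less, from a mean of 191 to 248 CPM (0.37 ± 0.025), and the pro-apoptotic BAX from 18.7 to 28 CPM (0.58 ± 0.044). The members that fell were PMAIP1 (NOXA, -0.81 ± 0.092), a BH3-only protein that ATF4 also induces, and, named after its value was seen, APAF1 (-0.17 ± 0.068), which encodes the core of the apoptosome. The number of members that fell was 1 with DESeq2, without any single DMSO library and without olaparib replicate 3.

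Regulators of apoptosis held calls in both directions (12 higher (42.9%) and 6 lower (21.4%) of 28 tested, median log2 fold change 0.018), against 23.4% and 22.9% of all genes. The BH3-only gene BBC3 (PUMA), a p53 target, went from 1.78, 1.76 and 1.57 CPM to 5.07, 4.39 and 4.47 CPM (1.44 ± 0.11), and CASP10 rose by 0.92. BCL2, which blocks apoptosis, went from 4.61, 4.2 and 4.17 CPM to 2.15, 2.17 and 1.95 CPM (-1.05 ± 0.12), while the related BCL2L1 rose from 97.9 to 119.7 CPM (0.29 ± 0.029). MCL1 measured 203 to 211 CPM and did not pass the test (0.054 ± 0.026, adjusted p = 0.0862).

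Cell cycle genes fell almost without exception, each by a modest amount. Of all genes tested 22.9% were lower and 23.4% higher. Of 43 S phase genes 41 fell (95.3%) and 0 rose, with a median log2 fold change of -0.48. Of 54 G2/M genes 52 fell and 1 rose, with a median of -0.56, and the gene that rose, JPT1 (named after its value was seen), changed by 0.075. Fewer cells in a phase and less RNA per cell cannot be told apart in bulk libraries. Among S phase genes, PRIM1, a primase subunit, went from 46.9, 47.6 and 45.9 CPM to 28.7, 27.8 and 26.6 CPM (-0.75 ± 0.039), CDC45 of the replicative helicase went from 58.6, 56.6 and 58.5 CPM to 36.7, 34.5 and 33.7 CPM (-0.73 ± 0.035), and the helicase subunit MCM5 went from 109, 108 and 110.0 CPM to 74.1, 74.6 and 79.6 CPM (-0.52 ± 0.028). The sliding clamp PCNA changed by -0.36 ± 0.025, thymidylate synthase (TYMS) by -0.33 ± 0.030 and the flap endonuclease FEN1 by -0.39 ± 0.026. The repressor E2F8 (-0.66 ± 0.051) and the helicase BLM (-0.65 ± 0.059) were also lower.

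Among G2/M genes, the lamin B receptor (LBR) went from 187, 189.8 and 183 CPM to 111, 105 and 103 CPM (-0.82 ± 0.029), HMGB2, a chromatin protein of cycling cells, from 219.8, 220.1 and 217 CPM to 123, 128 and 128 CPM (-0.79 ± 0.024), and the centromeric histone CENPA from 17.9, 19.4 and 18.6 CPM to 11.2, 10.9 and 10.6 CPM (-0.77 ± 0.056). None of the olaparib libraries reached the range of DMSO for these 3 genes. They were named as large falls of the list, and values did not overlap for 53.5% of all genes tested. CDK1, the mitotic kinase, changed by less, at 382, 380.4 and 381 CPM in the DMSO libraries and 327, 316 and 318 CPM in the olaparib libraries (-0.25 ± 0.024). The mitotic genes NUSAP1 (-0.49 ± 0.030), UBE2C (-0.57 ± 0.031) and GAS2L3 (-0.77 ± 0.062) were lower as well. Regulators of the G1/S step were mostly lower (3 higher (12%) and 16 lower (64%) of 25 tested, median log2 fold change -0.25, against 23.4% and 22.9% of all genes). The D-type cyclin CCND1 rose slightly (221 to 246 CPM, 0.15 ± 0.023), while CCNE2 (-0.58 ± 0.043), the CDK4/6 inhibitor CDKN2C (-0.73 ± 0.049), the pocket protein RBL1 (-0.59 ± 0.037) and the CDK inhibitor CDKN1B (-0.21 ± 0.034) fell.

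Many of the cell cycle genes that fell shared short sequences near their starts. Nearly all members of the S phase and G2/M lists fell, so the shares below describe the lists. Members that did not fall were too few to compare, and a link of motif and fall was not tested. Promoter windows of 300 bases (250 before and 50 after the annotated start, RefSeq, GRCh38.p14) were searched on both strands. TTTGAA or TTCGAA, the cell cycle homology region (CHR) that the DREAM and MuvB complexes bind, was found in 32 of the 43 G2/M genes that fell and had a window (74.4%), in 2 of 31 such S phase genes (6.45%), in 1 of 37 p53 targets that rose (2.70%), in 16.6% of 27305 promoters and in 11.2% of the 12121 promoters of genes tested. TTTCCCGC or TTTGGCGC, an E2F site, was found in 14 of the 31 S phase genes (45.2%), in 2 of the 43 G2/M genes (4.65%), in 5 of the 37 p53 targets that rose and had a window (13.5%), in 2.31% of all promoters and in 3.62% of those of genes tested. A 10-base p53 half-site, a pair of which makes up the full p53 response element, was found in 6 of the 37 p53 targets (16.2%), in 6.54% of all promoters and in 5.35% of those of genes tested. It was also found in 5 of the 31 S phase genes (16.1%) and in 4 of the 43 G2/M genes (9.30%) that fell, so its share did not set the p53 targets apart from the S phase genes, and many p53 sites lie outside such windows. These motifs can overlap other motifs, and a match is a description of the window and not a bound site. The windows of 3 genes with a CHR and of 2 with an E2F site are printed for genes that fell, and 1 with the p53 half-site for FDXR, a p53 target that rose (1.20 ± 0.038) and was chosen for its motif. Capitals mark only matches of the motif for which a window is shown. PLK1, a mitotic kinase (-0.67 ± 0.029), belongs to none of the lists and was named for its response to dose.
CENPA promoter (chr2:26785806-26786105, plus strand): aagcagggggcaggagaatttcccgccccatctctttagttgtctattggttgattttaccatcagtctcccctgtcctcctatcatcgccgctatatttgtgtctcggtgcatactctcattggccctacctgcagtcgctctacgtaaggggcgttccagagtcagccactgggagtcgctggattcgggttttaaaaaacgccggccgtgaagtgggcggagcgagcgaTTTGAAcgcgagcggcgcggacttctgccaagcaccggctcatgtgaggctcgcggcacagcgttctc
CDC20 promoter (chr1:43358731-43359030, plus strand): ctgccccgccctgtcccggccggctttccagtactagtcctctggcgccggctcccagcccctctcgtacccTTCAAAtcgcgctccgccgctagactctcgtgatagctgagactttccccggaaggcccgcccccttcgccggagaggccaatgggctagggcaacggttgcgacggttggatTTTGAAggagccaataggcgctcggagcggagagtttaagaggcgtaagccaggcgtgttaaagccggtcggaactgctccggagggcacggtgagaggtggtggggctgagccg
PLK1 promoter (chr16:23678639-23678938, plus strand): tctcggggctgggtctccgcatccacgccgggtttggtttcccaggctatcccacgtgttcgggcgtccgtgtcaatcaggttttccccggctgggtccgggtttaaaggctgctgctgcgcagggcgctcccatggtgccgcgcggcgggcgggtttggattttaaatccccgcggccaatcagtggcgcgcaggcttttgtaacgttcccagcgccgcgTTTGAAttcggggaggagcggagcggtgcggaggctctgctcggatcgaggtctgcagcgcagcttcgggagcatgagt
PCNA promoter (chr20:5126573-5126872, minus strand): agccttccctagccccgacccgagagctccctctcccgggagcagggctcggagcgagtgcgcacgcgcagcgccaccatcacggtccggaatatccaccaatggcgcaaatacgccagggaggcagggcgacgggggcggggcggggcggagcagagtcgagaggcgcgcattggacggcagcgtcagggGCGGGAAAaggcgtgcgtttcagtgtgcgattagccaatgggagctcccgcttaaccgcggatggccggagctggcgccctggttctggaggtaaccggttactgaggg
TYMS promoter (chr18:657403-657702, plus strand): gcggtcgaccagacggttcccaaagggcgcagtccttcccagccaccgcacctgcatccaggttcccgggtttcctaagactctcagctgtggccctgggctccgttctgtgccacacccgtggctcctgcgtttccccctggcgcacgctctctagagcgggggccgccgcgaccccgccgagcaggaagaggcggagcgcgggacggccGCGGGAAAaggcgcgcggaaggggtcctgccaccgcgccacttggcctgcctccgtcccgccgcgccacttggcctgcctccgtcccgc
FDXR promoter (chr17:74872945-74873244, minus strand): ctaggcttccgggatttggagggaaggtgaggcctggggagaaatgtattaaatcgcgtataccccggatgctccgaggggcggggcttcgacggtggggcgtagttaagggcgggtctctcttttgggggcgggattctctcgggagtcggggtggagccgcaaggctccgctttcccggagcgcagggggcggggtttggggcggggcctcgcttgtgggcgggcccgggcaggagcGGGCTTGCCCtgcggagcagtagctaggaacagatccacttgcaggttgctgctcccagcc
The CHR lay 18 bases before the start in CENPA, whose window also holds an E2F match, left in lower case, 232 bases before the start. It lay 29 bases before the start in PLK1, and 178 and 65 in CDC20, where the first is on the opposite strand. The E2F site lay 59 bases before the start in PCNA and 39 in TYMS, on the opposite strand in both, and the p53 half-site lay 11 bases before the start of FDXR.

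Genes of homologous recombination and the Fanconi pathway fell as a group, with 39 of 50 lower (78%), 0 higher and a median log2 fold change of -0.39. Over all genes 22.9% were lower and 23.4% higher. BRCA1 (ENSG00000012048.25, GRCh38 chromosome 17 from 43044295 to 43170245, minus strand), which organises break repair and resection, measured 88.5, 86.6 and 88.6 CPM in the DMSO libraries and 63.6, 64 and 58.1 CPM in the olaparib libraries (-0.50 ± 0.031, adjusted p = 3.67e-16). BRCA2 (ENSG00000139618.18, GRCh38 chromosome 13 from 32315086 to 32400268, plus strand), a mediator of recombination, measured 94.1, 96.1 and 90.1 CPM in the DMSO libraries and 62.2, 64.6 and 61.9 CPM in the olaparib libraries (-0.57 ± 0.032, adjusted p = 1.99e-17). The olaparib libraries of both genes lay below every DMSO library, with mean changes of -29.5% and -32.7%. PALB2, which joins these proteins, changed by less (-0.23 ± 0.050), and BARD1, the partner of BRCA1, by -0.63 ± 0.028. RAD51AP1 (-0.61 ± 0.047) and the nuclease subunit EME1 (-0.60 ± 0.052) were among the largest falls.

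Checkpoint genes fell in 19 of 26 cases (73.1%) with 0 higher (median -0.29), where 22.9% of all genes were lower and 23.4% higher. ATM and ATR, the kinases that start these checkpoints, were not among the checkpoint genes that fell. ATM measured 47.7, 44.6 and 44.3 CPM in the DMSO libraries and 44.1, 47.2 and 42 CPM in the olaparib libraries (-0.038 ± 0.038, adjusted p = 0.456) and ATR 91, 84.9 and 80.1 CPM in the DMSO libraries and 86.8, 85.6 and 84.4 CPM in the olaparib libraries (0.0028 ± 0.032, adjusted p = 0.958), and neither passed the test. The kinase CHEK1 downstream of ATR went from 69.8, 68.6 and 67.1 CPM to 47.5, 46.3 and 46.6 CPM (-0.55 ± 0.033). CHEK2 changed by -0.41 ± 0.042, the ATR mediator CLSPN by -0.54 ± 0.033, the phosphatase CDC25C by -0.52 ± 0.058, the histone variant H2AX by -0.52 ± 0.033 and PRKDC, the kinase of end joining, by -0.13 ± 0.038.

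PARP1 and PARP2, the targets named above, were slightly to modestly lower themselves. PARP1 (ENSG00000143799.14, GRCh38 chromosome 1 from 226360210 to 226408154, minus strand) measured 621, 615 and 619 CPM in the DMSO libraries and 558, 556 and 559 CPM in the olaparib libraries (-0.15 ± 0.017, adjusted p = 3.79e-09) and PARP2 38.8, 38.8 and 40.5 CPM in the DMSO libraries and 30.9, 29.2 and 28.3 CPM in the olaparib libraries (-0.42 ± 0.038, adjusted p = 1.07e-11). Over the PARP family and its partners the counts were 6 higher (31.6%) and 7 lower (36.8%) of 19 tested, median log2 fold change -0.036, against 23.4% and 22.9% of all genes. PARP8 was lower (-0.52 ± 0.072), while PARP10 (0.42 ± 0.051), PARP4 (0.38 ± 0.026) and PARP3 (0.23 ± 0.070) were higher. PARG, which removes poly(ADP-ribose), did not pass the test (0.018 ± 0.034, adjusted p = 0.695).

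**Figure D3:**
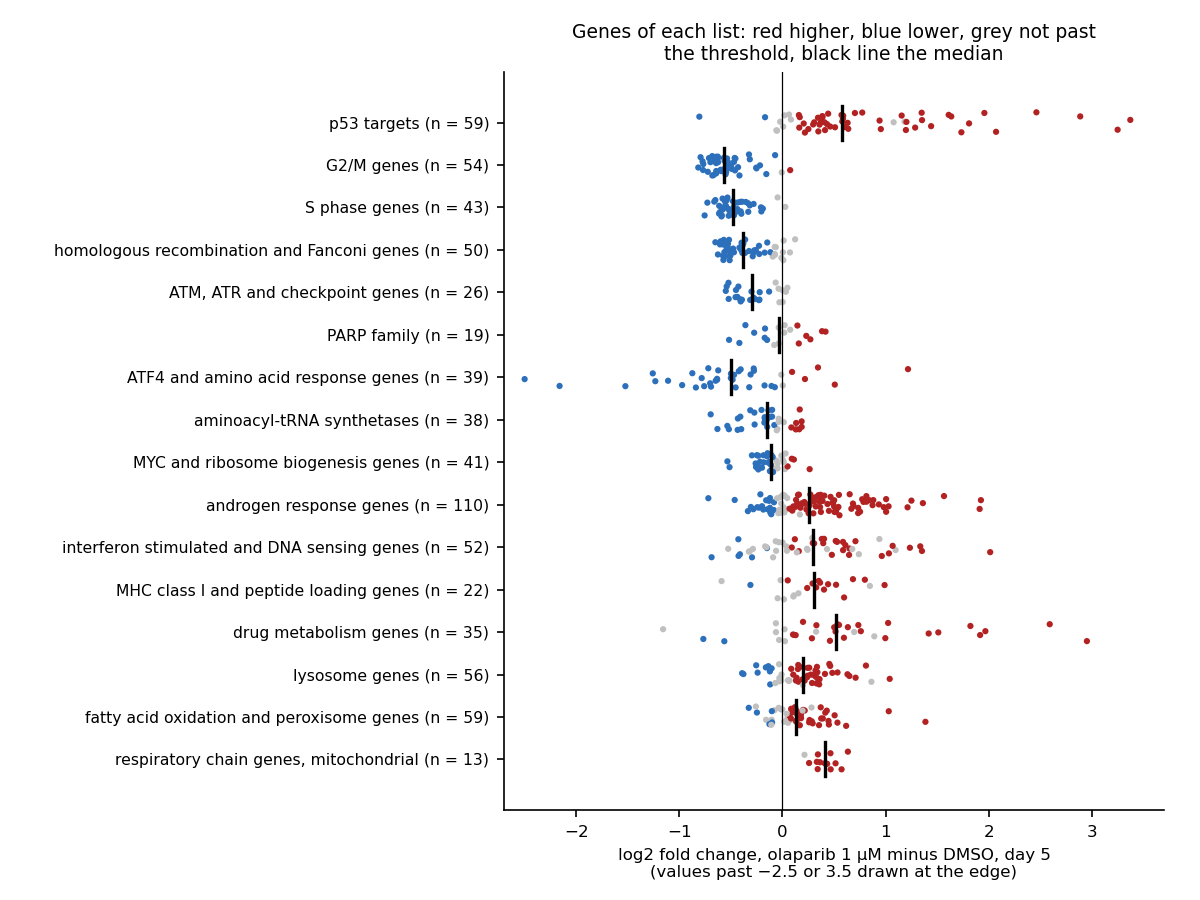
Log2 fold change (horizontal axis) of each tested gene in 16 gene lists, olaparib 1 µM against DMSO at day 5, with the number tested beside each list. Red points are higher, blue points lower and grey points not past the threshold, and the black line is the median, which lay at 0.57 for p53 targets, -0.56 for G2/M genes, -0.50 for the ATF4 group and 0.26 for androgen response genes.

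Androgen response genes were mostly higher, with 72 of 110 up (65.5%) and 19 down (17.3%) and a median log2 fold change of 0.26. Over all genes 23.4% were higher and 22.9% lower, so the share of falls was not far below that of all genes. TMPRSS2 (ENSG00000184012.14, GRCh38 chromosome 21 from 41464300 to 41531116, minus strand), a luminal serine protease, measured 115.8, 115.7 and 119 CPM in the DMSO libraries and 234, 234 and 235 CPM in the olaparib libraries, 2.01-fold (1.01 ± 0.026, adjusted p = 4.25e-27). FKBP5, a co-chaperone of steroid receptors, went from 705, 684 and 686 CPM to 969, 968 and 969.6 CPM (0.49 ± 0.018). KLK3 (ENSG00000142515.16, GRCh38 chromosome 19 from 50854915 to 50860764, plus strand) rose by a small, tightly measured amount, at 1248, 1255 and 1232 CPM in the DMSO libraries and 1486, 1498 and 1499.5 CPM in the olaparib libraries (0.26 ± 0.021, adjusted p = 3.04e-10). The largest rises of the list, among members whose higher group averaged 100 counts or more, were the transcription factor MAF (from 31, 29.5 and 31.9 CPM to 120.1, 118 and 113 CPM, 1.92 ± 0.037), NDRG1, which hypoxia and p53 also induce (from 111, 104 and 106 CPM to 392, 400.2 and 419.5 CPM, 1.91 ± 0.035), PART1 (1.36 ± 0.069) and ADAM7 (1.25 ± 0.050). NDRG1 also stands in the hypoxia list.

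The prostate lineage transcription factors FOXA1, GATA2 and HOXB13 were slightly lower, with FOXA1 at a mean of 383 to 338 CPM (-0.18 ± 0.021), GATA2 at 101 to 94.8 CPM (-0.092 ± 0.028) and HOXB13 at 226 to 207 CPM (-0.12 ± 0.022). Over the list of lineage and androgen metabolism factors the counts were 13 higher (46.4%) and 6 lower (21.4%) of 28 tested, median log2 fold change 0.045, the share of falls being near the 22.9% of all genes. CYP17A1, which makes androgen precursors, had at most 6 counts in a DMSO library and at most 21 with olaparib, so its change of 1.85 ± 0.43 rests on very few reads. The androgen-conjugating UGT2B28 rose (0.76 ± 0.044), as did HSD17B11 (0.60 ± 0.057), and FOLH1, which encodes prostate-specific membrane antigen, fell (703 to 607 CPM, -0.21 ± 0.018). The luminal keratin KRT8 rose from 258 to 375 CPM (0.54 ± 0.022).

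The ATF4 group, genes of amino acid uptake, synthesis and the integrated stress response, had 32 of 39 members lower (82.1%) and 5 higher (12.8%, median -0.50). Over all genes 22.9% were lower and 23.4% higher. ATF4 (ENSG00000128272.18, GRCh38 chromosome 22 from 39519695 to 39522683, plus strand), the transcription factor that heads the response, measured 466, 466 and 482 CPM in the DMSO libraries and 292, 292 and 289.9 CPM in the olaparib libraries (-0.69 ± 0.020, adjusted p = 8.02e-26). DDIT3 (CHOP), another effector, fell by less (13.5 to 10.8 CPM, -0.32 ± 0.057), and CHAC1, ASNS, SLC7A11 and SLC1A4 above belong to the same list. Aminoacyl-tRNA synthetases, which charge tRNAs and are in part ATF4 targets, were lower in 25 of 38 cases and higher in 7, the latter 4 with total-count scaling and without DMSO replicate 3. The glycyl enzyme GARS1 went from 278, 276 and 272 CPM to 172, 170.2 and 168 CPM (-0.70 ± 0.022), CARS1 changed by -0.63 ± 0.031, MARS1 by -0.53 ± 0.023 and YARS1 by -0.52 ± 0.024. The members that rose were changed by at most 0.19.

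Genes of the endoplasmic reticulum were called more often than all genes on the lower side (13 higher (27.7%) and 25 lower (53.2%) of 47 tested, median log2 fold change -0.052, against 23.4% and 22.9%), by small amounts. The chaperone HSPA5 was slightly higher (964 to 1035 CPM, 0.10 ± 0.018), DNAJB9 higher (0.32 ± 0.059) and the transcription factor XBP1 lower (144 to 114 CPM, -0.34 ± 0.024). MYC rose from 152 to 182 CPM (0.26 ± 0.025), while the ribosome biogenesis genes on its list were mostly lower (4 higher (9.76%) and 27 lower (65.9%) of 41 tested, median log2 fold change -0.11). The nucleolar proteins NCL (-0.20 ± 0.015), NPM1 (-0.23 ± 0.015) and FBL (-0.23 ± 0.025) fell by similar small amounts, and UTP20 (-0.53 ± 0.029) and TCOF1 (-0.51 ± 0.028) by more. The count of 4 higher members was 1 with total-count scaling or without olaparib replicate 3, and 2 without DMSO replicate 1 or 3.

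Interferon-stimulated and DNA-sensing genes rose more often than they fell (24 higher (46.2%) and 6 lower (11.5%) of 52 tested, median log2 fold change 0.29, against 23.4% and 22.9% of all genes), and many had few reads. STING1, the adaptor of cytosolic DNA sensing, went from 1.94, 1.81 and 1.83 CPM to 3.78, 5.04 and 4.35 CPM (1.24 ± 0.13). The ubiquitin-like ISG15 went from 7.43, 8.26 and 7.87 CPM to 12.1, 12 and 11.8 CPM (0.61 ± 0.071), LGALS3BP changed by 0.71 ± 0.087, IFI6 by 0.65 ± 0.11 and CMPK2, which fell, by -0.69 ± 0.14. IFIT1 did not pass the test (-0.17 ± 0.30, adjusted p = 0.685). IFI27 had at most 20 counts in a library, and its change of 1.34 ± 0.45 (adjusted p = 0.0144) was 1.11 (adjusted p = 0.0712) without DMSO replicate 2 and 0.81 (adjusted p = 0.214) without olaparib replicate 2. Antigen presentation genes rose in 13 of 22 cases (59.1%) and fell in 1 (4.55%). Beta-2 microglobulin (B2M) went from 166, 176 and 169 CPM to 278, 268 and 276 CPM (0.68 ± 0.028), HLA-B from 12.3, 13.4 and 12 CPM to 16.9, 17.7 and 16.7 CPM (0.44 ± 0.056) and HLA-C changed by 0.24 ± 0.031. HLA genes share sequence, so their counts depend on how reads were assigned.

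Inflammatory and secreted factors under NF-kB gave 14 higher (53.8%) and 5 lower (19.2%) of 26 tested, median log2 fold change 0.33, so that rises were above the 23.4% of all genes and falls near the 22.9%. LIF (above), the protease inhibitor SERPINE2 (from 2.45, 1.79 and 2.88 CPM to 9.84, 8.73 and 8.82 CPM, 1.94 ± 0.11) and NFKB2 (33.8 to 53 CPM, 0.65 ± 0.035) rose. TNFAIP3, an NF-kB feedback inhibitor, rose by 0.69 ± 0.18 (adjusted p = 0.00175), which was 0.43 (adjusted p = 0.0611) without olaparib replicate 3. Lamin B1 (LMNB1), which is lost in senescent cells, fell from 237, 239 and 236 CPM to 149.9, 150.1 and 153 CPM (-0.65 ± 0.031). CXCL8 and IL6, the classical secreted cytokines of senescence, had at most 1 and 0 counts in any of the 6 libraries and were not tested.

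Metabolic genes changed along several lines, and the counts below stand beside 23.4% higher and 22.9% lower over all genes. All 13 mitochondrially encoded respiratory genes measured higher and 12 passed the test (median 0.41), with MT-CYB at 4685, 4584 and 4752 CPM in the DMSO libraries and 6829.6, 6857 and 7177 CPM in the olaparib libraries (0.57 ± 0.034) and MT-ND5 changed by 0.63 ± 0.024. Reads of the mitochondrial genome made up 8.24% to 8.38% of counts in DMSO and 10.6% to 11.0% with olaparib, and the 10 most counted genes held 8.4% to 8.5% and 10.5% to 10.7%. Reads of the non-polyadenylated 7SL and 7SK RNAs made up 0.0758% to 0.126% in DMSO and 0.00486% to 0.0318% with olaparib. The part of these shifts in the results was not tested. Nuclear-encoded subunits of the same complexes changed much less (27 higher (35.5%) and 11 lower (14.5%) of 76 tested, median log2 fold change 0.030), and 7 rather than 11 were lower without olaparib replicate 2. Oxidation of fatty acids and peroxisomes had 34 higher (57.6%) and 5 lower (8.47%) of 59 tested, median log2 fold change 0.13, with 3 lower without DMSO or olaparib replicate 2. Within it, ACOX2 (9.07 to 18.5 CPM, 1.03 ± 0.058), AMACR, a racemase abundant in prostate cancer (55.8 to 85.7 CPM, 0.62 ± 0.031), PHYH (0.53 ± 0.035) and CROT (0.51 ± 0.033) rose, CPT1A fell (-0.25 ± 0.042), and the regulator PPARA did not pass the test (-0.00024 ± 0.045).

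Sterol and fatty acid synthesis genes gave 10 higher (25.6%) and 20 lower (51.3%) of 39 tested, median log2 fold change -0.091, so that the share of rises was near the 23.4% of all genes and that of falls above the 22.9%, with HMGCS1 higher (0.22 ± 0.029) and INSIG1 (-0.46 ± 0.023), SQLE (-0.32 ± 0.034) and ELOVL6 (-0.78 ± 0.11) lower. Glycolysis and hypoxia genes rose more often (26 higher (61.9%) and 4 lower (9.52%) of 42 tested, median log2 fold change 0.12), among them ALDOC (30.3 to 55.6 CPM, 0.88 ± 0.035) and VEGFA (112 to 162 CPM, 0.53 ± 0.027), while HK2 did not pass the test (-0.051 ± 0.032, adjusted p = 0.214). The NRF2 list gave 16 higher (44.4%) and 10 lower (27.8%) of 36 tested, median log2 fold change 0.055, against 23.4% and 22.9% of all genes. NQO1 (240.5 to 173 CPM, -0.48 ± 0.024), GCLM (-0.41 ± 0.045) and TXNRD1 (-0.29 ± 0.024), which are NRF2 targets, were lower, the NRF2 targets HMOX1 (0.12 ± 0.072, adjusted p = 0.189) and GCLC (-0.034, adjusted p = 0.415, named after its value was seen) did not pass the test, and ferritin light chain (FTL, 115 to 206 CPM, 0.83 ± 0.029) and GSTM3 (0.59 ± 0.028) were higher.

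Drug metabolism genes rose in 24 of 35 cases (68.6%) and fell in 2 (5.71%, median 0.52), where 23.4% of all genes were higher and 22.9% lower. Beside CYP3A5, the dioxin-inducible CYP1A1 went from 1.74, 1.41 and 1.03 CPM to 3.51, 3.98 and 3.77 CPM (1.42 ± 0.15) and CYP4F8 from 1.78, 2.14 and 2.06 CPM to 7.83, 7.37 and 7.31 CPM (1.92 ± 0.11), and the sulfotransferase SULT2B1 fell (-0.77 ± 0.12). Of the drug efflux transporters, ABCB1, which exports olaparib, had at most 2 counts in any of the 6 libraries and was not tested, and ABCG2 did not pass the test (-0.36 ± 0.18, adjusted p = 0.106). ABCC1 (0.13 ± 0.026), ABCC5 (0.46 ± 0.035) and ABCC10 (0.49 ± 0.051) rose and ABCC4 fell (-0.13 ± 0.020). Lysosomal genes rose in 35 of 56 cases and fell in 9 (median 0.20), with the protease CTSD at 151, 152 and 156 CPM in the DMSO libraries and 209.7, 212 and 211 CPM in the olaparib libraries (0.46 ± 0.030) and the cholesterol exporter NPC1 at a mean of 95.7 to 150.1 CPM (0.65 ± 0.026).

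Matrix and adhesion genes rose more often than they fell (24 higher (48%) and 7 lower (14%) of 50 tested, median log2 fold change 0.36, against 23.4% and 22.9% of all genes). The laminin chain LAMC1 went from 305 to 468 CPM (0.62 ± 0.027), LAMA1 from 20.0 to 38.7 CPM (0.95 ± 0.044) and the basement membrane collagen COL4A5 from 39 to 70.7 CPM (0.86 ± 0.032). Epithelial and mesenchymal genes gave 14 higher (46.7%) and 8 lower (26.7%) of 30 tested, median log2 fold change 0.15, beside 23.4% and 22.9% of all genes, and both classes held rises. The mesenchymal VIM (from 20.0, 19.7 and 19.7 CPM to 38.1, 38.6 and 38 CPM, 0.95 ± 0.041), FN1 (212 to 397 CPM, 0.91 ± 0.027) and SNAI2 (12.8 to 32.6 CPM, 1.35 ± 0.066) rose, and so did the epithelial CDH1 (502 to 597 CPM, 0.25 ± 0.019) and KRT19 (0.55 ± 0.041), while EPCAM fell (-0.26 ± 0.030). Neuroendocrine and plasticity genes gave 3 higher (25%) and 5 lower (41.7%) of 12 tested, median log2 fold change -0.27 (23.4% and 22.9% over all genes), a small list, with SYP (-0.32 ± 0.16, adjusted p = 0.112, and -0.45 with adjusted p = 0.0453 without olaparib replicate 2) and ENO2 (-0.12 ± 0.16) not past the test and CHGA at no more than 2 counts. SOX9, a factor of progenitor states, went from 4.14, 3.93 and 3.27 CPM to 10.9, 9.95 and 11.4 CPM (1.50 ± 0.082).

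Among growth factor receptors (13 higher (38.2%) and 3 lower (8.82%) of 34 tested, median log2 fold change 0.080), IGF1R rose (121 to 188 CPM, 0.63 ± 0.028), ERBB2 rose slightly (0.19 ± 0.025), EGFR did not pass the test (-0.015 ± 0.028, adjusted p = 0.709) and MET fell from 13.1, 13.9 and 12.3 CPM to 5.58, 6.18 and 5.95 CPM (-1.15 ± 0.071). The Wnt list gave 8 higher (26.7%) and 6 lower (20.0%) of 30 tested, median log2 fold change -0.026, shares near the 23.4% and 22.9% of all genes, with WNT5A lower (-0.97 ± 0.095), the receptor ROR1 higher (0.99 ± 0.065) and the feedback target AXIN2 not past the test (-0.21 ± 0.11). Histone genes gave 23 higher (39%) and 8 lower (13.6%) of 59 tested, median log2 fold change 0.21. The linker histone H1-10 (from 174, 179 and 189 CPM to 131, 126 and 131 CPM, -0.48 ± 0.028) fell and H2BC21 rose (135 to 272 CPM, 1.01 ± 0.026). Most replication-dependent histone mRNAs lack a poly(A) tail and histone copies share reads, so their counts in poly(A)-selected libraries are uncertain.

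The effect at day 5 was compared with that of the same dose at day 1, where 2928 genes were called (15.8%), 1166 of them higher (6.30%) and 1762 lower. Both effects use separate DMSO libraries of their own day and 1 fit. The effects of the days differ for 5510 genes (29.8%), with 2883 positive (15.6%) and 2627 negative (14.2%) differences, day 5 minus day 1. With total-count scaling the positive share of these calls was 37.4% in place of 52.3%. The p53 response was already present at day 1, with 46 of the 59 targets higher (median 0.51). CDKN1A rose by 1.87 ± 0.025 at day 1 and the day 5 effect exceeded it by 0.60 ± 0.035, while GDF15 was induced less at day 5 (difference -0.30 ± 0.067, adjusted p = 9.29e-04), and for FAS (0.21 ± 0.12, adjusted p = 0.273) and BAX (-0.016 ± 0.062, adjusted p = 0.885) no difference between days was called.

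At day 1, when 9.52% of all genes tested were lower, the cell cycle, recombination and androgen response lists had medians nearer 0 than at day 5. By then 19 of 43 S phase genes, 21 of 54 G2/M genes, 6 of 50 recombination genes and 39 of 110 androgen response genes had fallen, and 6 androgen response genes had risen. Median log2 fold changes at day 1 were -0.092 for S phase genes, -0.065 for G2/M genes, -0.0044 for recombination genes and -0.049 for androgen response genes. The difference between days was negative for 37 of 43 S phase genes, 52 of 54 G2/M genes and 35 of 50 recombination genes, and positive for 78 of 110 androgen response genes. Such differences were negative for 14.2% and positive for 15.6% of all genes. Some other lists did not follow the order of the medians. Ribosome biogenesis genes on the MYC list had 32 of 41 lower at day 1 (median -0.13) and 27 at day 5, ER chaperone and secretory genes had 23 of 47 (median -0.060) and 25, and histone genes had 22 of 59 lower and 0 higher at day 1 (median -0.21) but 8 lower and 23 higher at day 5. KLK3 fell at day 1 (-0.14 ± 0.022, adjusted p = 4.22e-05) and rose at day 5, a difference of 0.41 ± 0.030 (adjusted p = 1.83e-10). TMPRSS2 differed by 0.94 ± 0.038, BRCA1 by -0.56 ± 0.043 and BRCA2 by -0.58 ± 0.044. The ATF4 group was slightly higher at day 1, when 15 of its 39 members rose, and 33 had a negative difference. CHAC1, for one, rose by 0.27 ± 0.085 at day 1 (adjusted p = 0.0276), and the day 5 effect was -2.43 ± 0.13 away from that. The largest positive differences among genes named by rule were CYP3A5 (2.65 ± 0.34), SERPIND1 (2.48 ± 0.24), GPNMB (2.07 ± 0.17) and THBS1 (2.03 ± 0.065), and the largest negative ones CHAC1, LINC01133 (-1.97 ± 0.19), NIBAN1 (-1.88 ± 0.071) and CA8 (-1.62 ± 0.13).

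**Figure D4:**
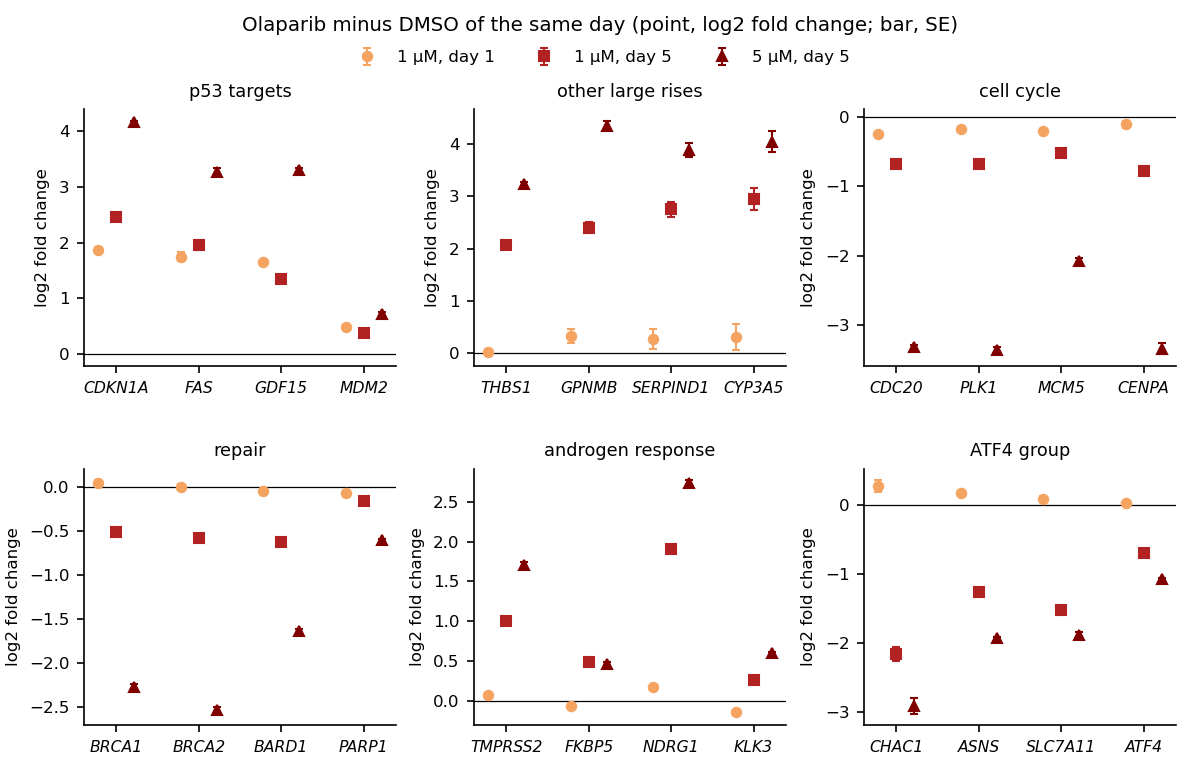
Log2 fold change against DMSO of the same day (points, vertical axis, bars are SE) for 24 genes in 6 groups with olaparib 1 µM at day 1 (circles), 1 µM at day 5 (squares) and 5 µM at day 5 (triangles). The p53 targets stand high at day 1, the cell cycle and repair genes lie closest to 0 at day 1 and lowest with 5 µM, and FKBP5 lies at nearly the same height with 1 µM (0.49) and 5 µM (0.46).

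The dose of 1 µM was then set against 5 µM on the same day, a comparison that uses the same 3 libraries of olaparib 1 µM. Called genes numbered 9909 (53.6%), 4914 higher (26.6%) and 4995 lower (27.0%) with 5 µM, and the higher share of these calls was 38.7% with total-count scaling in place of 49.6%. At least a log2 difference of 1 was found for 1235. The cell cycle lists fell much further, with a median difference of -2.02 over G2/M genes (53 of 54 lower) and -1.46 over S phase genes (42 of 43). The mean level of CENPA (± SD, n = 3) was 18.7 ± 0.76 CPM in DMSO, 10.9 ± 0.27 CPM with 1 µM and 1.84 ± 0.26 CPM with 5 µM. Levels of PLK1 were 105 ± 2.8, 65.6 ± 1.2 and 10.2 ± 0.23 CPM in the same order (± SD, n = 3). BRCA1 differed between doses by -1.77 ± 0.038 and BRCA2 by -1.97 ± 0.040, several times their change from DMSO to 1 µM.

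CDKN1A rose again with dose, from 226 ± 2.4 CPM at 1 µM to 731 ± 24 CPM at 5 µM (± SD, n = 3, log2 difference 1.69 ± 0.022), and GDF15 differed by 1.95 ± 0.040. Androgen response genes were divided, with 55 higher and 41 lower of 110, where 26.6% of all genes were higher and 27.0% lower. TMPRSS2 (0.71 ± 0.025) and KLK3 (0.33 ± 0.021) were higher with 5 µM, whereas FKBP5 (-0.022 ± 0.018, adjusted p = 0.31) differed by less than the test could call. Members of the ATF4 group fell further for ASNS (-0.67 ± 0.025), ATF4 (-0.39 ± 0.020) and SLC7A11 (-0.36 ± 0.048), while DDIT3 was higher (0.17 ± 0.059, adjusted p = 0.0134). The largest falls with dose among genes named by rule were NMU, a neuropeptide (-3.44 ± 0.17), PLK1 (-2.68 ± 0.039), CDC20, an activator of the anaphase-promoting complex (-2.63 ± 0.037), and PTTG1 (securin, -2.60 ± 0.046). The largest rises were PRAMEF36P, TRIM49B, TRIM43B and PRAMEF12, which belong to families of near-identical copies, had at most 9 counts in a library at 1 µM and so give uncertain values.

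The same dose and day was measured again in the panel, which has its own DMSO libraries. There 6638 of 18625 genes were called (35.6%), 19.6% higher and 16.0% lower. Of the calls 55.1% were higher, and 43.0% with total-count scaling. Of 17960 genes tested in both experiments, 8503 were called in the time course and 6603 in the panel. Both called 5426, which is 63.8% of the time course calls and 82.2% of the panel calls, and 5408 of these went in the same direction. Across all genes tested in both, the log2 fold changes had a Pearson correlation of 0.494 and a Spearman correlation of 0.675, a description over genes that share libraries and are not independent replicates.

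**Figure D5:**
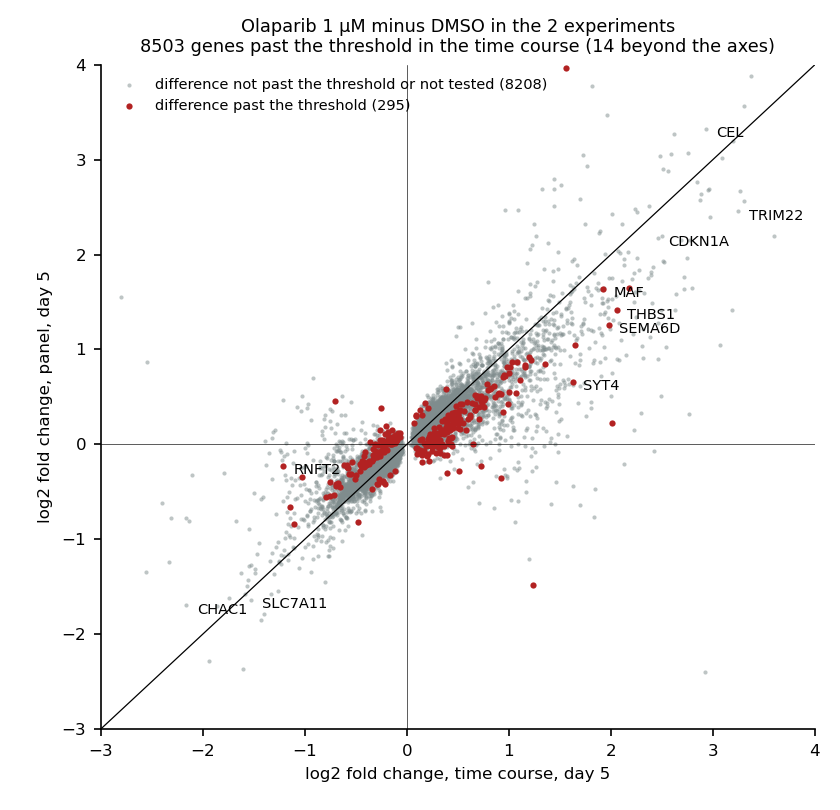
Log2 fold change of olaparib 1 µM against DMSO at day 5 in the time course (horizontal axis) and in the panel (vertical axis) for the 8503 genes called in the time course, with the line of equality. Most points lie in the lower left and upper right quadrants, and red marks the 295 whose difference between experiments passed the test.

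A test of the difference itself called 352 of 17833 genes (1.97%), 143 positive (0.802%) and 209 negative (1.17%), panel minus time course. The positive share of the calls was 40.6%, and 53.6% without a filter on low counts and 52.7% with DESeq2. The count varied with single libraries. It was 200, 174 and 166 without time course DMSO replicates 1, 2 and 3, and 171, 169 and 174 without olaparib replicates 1, 2 and 3. It was 170 and 773 without panel DMSO replicates B and C, and 233 and 155 without panel olaparib replicates A and C. In the panel, 46 of 58 p53 targets were higher, 37 of 43 S phase and 50 of 54 G2/M genes lower, 32 of 50 recombination genes lower, 30 of 39 ATF4 group genes lower and 66 of 110 androgen response genes higher. Over all genes 19.6% were higher and 16.0% lower in the panel. CDKN1A changed there by 2.18 ± 0.053, TMPRSS2 by 0.73 ± 0.073, BRCA1 by -0.34 ± 0.052 and ASNS by -1.23 ± 0.063. The androgen response list was not alike in both experiments, since 35 of its 110 members had a called difference, against 1.97% of all genes. Other lists, all smaller, had at most 5 such members, among them 3 of 11 prostate luminal markers. The median of the androgen response list was 0.16 in the panel and 0.26 in the time course. Medians of some other lists were also nearer 0 in the panel, as for S phase genes (-0.345 and -0.476) and drug metabolism genes (0.335 and 0.515). Others were farther from 0 there, as for glycolysis and hypoxia genes (0.237 and 0.117). KLK3 rose by less in the panel (0.18 ± 0.044, difference in the joint fit -0.11 ± 0.028, adjusted p = 0.0448), and PARP1 did not pass the test there (-0.049 ± 0.021, adjusted p = 0.0707).

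The named genes that differed most between experiments were SYT4 (1.63 ± 0.068 in the time course and 0.66 ± 0.069 in the panel), FSIP1 (0.042 ± 0.12 and -0.91 ± 0.15), TMEM154 (0.52 ± 0.092 and -0.28 ± 0.10) and SEMA6D (1.98 ± 0.11 and 1.26 ± 0.23) on the negative side. On the positive side they were RNFT2 (-1.22 ± 0.14 and -0.23 ± 0.11), RGS9 (-1.03 ± 0.12 and -0.34 ± 0.12), MET (-1.15 ± 0.071 and -0.67 ± 0.084) and RN7SL1. RN7SL1, the RNA of the signal recognition particle, is not polyadenylated and has many copies, and its value is uncertain. It ranged widely within groups, at 257, 408 and 262 CPM in the DMSO libraries and 108, 90.3 and 18.2 CPM in the olaparib libraries.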

How the data were processed

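RNA-seq of C4-2B cells was read from 1 table of 63187 genes and 39 libraries. The authors trimmed paired reads with Trim Galore, aligned them to GRCh38 with STAR and made estimated counts per gene with Salmon on GENCODE, which they deposited as unnormalized whole numbers. How these were rounded is not given in the sources used here. Symbols and coordinates came from GENCODE 44, an earlier release than theirs, and 62666 IDs matched.

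Libraries were grouped by their titles. The 18 time course libraries (6 groups) entered 1 fit in edgeR 4.0.16 (R 4.3.3) with TMM scaling, filterByExpr by group, robust quasi-likelihood tests and Benjamini-Hochberg adjustment over the 18502 genes tested, and an adjusted p under 0.05 was called. The dose step, the difference between days, the 21 panel libraries (18625 genes) and a joint fit of 12 libraries for the difference between experiments (17833 genes) were handled alike. SE is the log2 fold change divided by the root of F. The fit was tried on simulated counts, and the outcome is not reported here. The alternatives were RLE and total-count scaling, 2 other filters, a log2 fold limit of 1, DESeq2 1.42.0, only the groups compared, a replicate block and leaving out each library. Depth was 36089054 to 44893664 counts per library, which leaves genes with few counts imprecise.

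The members and gene lists were chosen with earlier results of these data known. The cell cycle lists are those of Seurat 5.3.0, histone, collagen and similar families were taken by symbol, and the rest of the 34 lists were written from general knowledge. Named genes are the 12 largest rises and falls with a mean of 100 counts or more in the higher group, 18 genes of androgen, p53 and repair pathways, the first 4 members and the 4 most changed members of each list, and the 4 most different each way in the other comparisons. Some of these genes are not reported here. Others are said to be chosen after their values were seen. Promoters are from RefSeq (GRCh38.p14).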

Additional observations from a re-analysis of the deposited data

Results flagged for a closer look

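The effect of olaparib 1 µM differed between day 5 and day 1 for 5510 genes by the interaction term of the fit, at an adjusted p of 0.05 or less in edgeR. Values here are day 5 minus day 1 differences of log2 fold changes. They were positive for CYP3A5 2.65, SERPIND1 2.48, GPNMB 2.07, THBS1 2.03, HHIPL2 1.91, TRIM22 1.7, APOBEC3C 1.62, TMPRSS2 0.935, PURPL 0.872, LIF 0.68, SPATA18 0.615, CDKN1A 0.596, FKBP5 0.549 and KLK3 0.408. They were negative for PARP1 -0.0822, PARP2 -0.298, BRCA1 -0.557, BRCA2 -0.579, PREX1 -1.16, DDC -1.19, SLC1A4 -1.37, SLITRK3 -1.37, ASNS -1.43, BCAT1 -1.45, RNF152 -1.54, SLC7A11 -1.6, CA8 -1.62, NIBAN1 -1.88, LINC01133 -1.97 and CHAC1 -2.43.

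The effect differed between the panel and the time course for 352 genes in the joint fit. The panel minus time course differences were positive for RN7SL1 4.27, RNFT2 0.97, RGS9 0.667 and MET 0.466 and negative for FKBP5 -0.104, KLK3 -0.108, PURPL -0.549, THBS1 -0.667, SEMA6D -0.747, TMEM154 -0.814, FSIP1 -0.967 and SYT4 -0.986. RN7SL1 is a non-polyadenylated RNA with many copies, and its difference is uncertain. Which property of the experiments goes with these differences was not tested. In the groups of 3 libraries no single library was tested as an outlier.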

How the results depend on the processing

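The count of 8566 genes for olaparib 1 µM against DMSO lay between 7737 and 7929 when 1 library was left out (3878 to 4022 higher, 3834 to 3929 lower) and was 7822 with DESeq2. With the log2 fold limit of 1 the counts were 738 (613 higher, 125 lower), 1235 for 5 µM against 1 µM, 433 for the difference between days, 502 for the panel and 11 for the panel minus the time course, a limit that by construction keeps fewer genes. Leaving out 1 library gave 9208 to 9290 for the dose step, 5026 to 5324 for the days, 5647 to 6330 for the panel and 155 to 773 for the panel minus the time course. The last count was 672 without a filter on low counts and 634 with DESeq2, against 352, with 53.6% and 52.7% of the calls positive against 40.6%. The cause was not tested.

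Same-numbered libraries of the groups did not deviate together (correlations 0.00226 to 0.116, and -0.069 to 0.0567 between other numbers), so the numbers do not pair them. With a replicate block the counts were 8492 for the main comparison, 9875 for dose, 5445 for days, 6534 for the panel and 392 for the panel minus the time course.

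Of 3258 values of named genes under 13 alternatives, 3224 kept their direction and side of the threshold, 26 lost and 8 gained the call, and 0 changed sign. These concern 14 genes, IFI27, TNFAIP3, MCL1, BAK1, ACADM, COX4I1, ATP5F1B, HK2, HMOX1, SYP, TFEB, PRAMEF36P, TRIM49B and PRAMEF12. Of 884 counts over lists, 870 stayed within 1.5 times. Genes with few counts were not measured precisely enough to show small changes, and 1 cell line was studied.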
